A study of Vicia sativa with 8 samples.

Results

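The stamens and the carpels are the male and the female organs of the same flower, and the library labelled Stamens was compared here with the library labelled Carpels by annotated function. The 2 libraries belong to a series of 8, with 1 library for each organ of common vetch (Vicia sativa), a forage legume. Both came from flowers of the cultivar Lanjian 3 at floral stage 12, dissected from plants of about 45 days grown in a greenhouse, and the organs of many flowers and plants were pooled by the study before RNA extraction. Sepals and the dorsal, lateral and ventral petals of the same flowers, and leaves and roots of seedlings 2 weeks old, gave the 6 other libraries, which are used below only to show where else a transcript was found.

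The stamen library held 5.37 M uniquely aligned reads and the carpel library 5.44 M, within the range of 5.35 to 6.28 M over the 8 libraries. The 100 most counted unigenes took 4.18% of the stamen reads and 7.33% of the carpel reads. The reads had been counted on unigenes, which are transcript fragments assembled by the study without a genome, and the levels are RPKM, the reads per kilobase of unigene scaled to the uniquely aligned reads of the library. Of 71553 unigenes in the 8 tables, 67348 had a read in stamens or carpels and 43749 had at least 20 reads in both organs together. With 1 library a side there is no replicate check and no test. Ratios are given with an exact binomial (Clopper-Pearson) 95% interval on its reads, which covers counting error only and not the variation between plants. A unigene is called higher in an organ below where its RPKM was at least 4-fold that of the other organ, and a count of 0 was set to 3 reads, so that such a fold is a lower bound. Several unigenes can be fragments of the same gene, or of near-identical copies whose shared reads a unique alignment drops, so that counts of unigenes are not counts of genes. In these bulk organs, fewer cells of a type and less RNA per cell cannot be told apart.

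In the flower, B-function and C-function MADS-box genes together specify stamens, while C-function genes without B-function genes specify carpels. Late before anthesis the anther holds maturing pollen, whose tube will later grow through the pistil at its tip. The tube secretes pectin and alters it with pectinesterases and pectate lyases. Its growth is driven by sugar uptake, proton pumps, calcium signals and actin. The carpel encloses the ovules in a wall that goes on to form the pod.

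The study designed PCR primers for 61 unigenes, of which 40 had enough reads here, 11 were higher in stamens and 8 in carpels, against 20.7% and 12.2% of all unigenes with enough reads. Pairs of 5 unigenes, picked after their values were seen, are shown because they allow large differences in both directions to be measured again, 2 for each organ beside the internal control. They are written 5′ to 3′ in lower case, with no base marked, the forward primer before the reverse primer.
Unigene60528 forward: tgatggactgtcgattttgg
Unigene60528 reverse: ccaatggctgaacaacaatg
Unigene65459 forward: gcaatcaacacattaagcaacaa
Unigene65459 reverse: gataatagagcgattggcgagt
Unigene68765 forward: caagcaccgatatgtttgga
Unigene68765 reverse: ccgttaacaaacctcgcact
Unigene68847 forward: ccaaaacactgatctcgatcct
Unigene68847 reverse: tcatccccgcagaatgtatc
Unigene68614 forward: gctaaagcattgaacaacaaaaga
Unigene68614 reverse: gcaaagtttgtcccttcacc
Unigene60528, matched to a protein named Os09g0433700, had 2427 reads (936 RPKM) in stamens and 6 reads (2.28 RPKM) in carpels, a 409.7-fold higher level in stamens with an interval of 188 to 1117. Unigene65459, annotated as the aquaporin NIP1-3, a channel for water and small solutes, had 2076 reads (584 RPKM) in stamens and 150 reads (41.7 RPKM) in carpels, and was 14.02-fold higher in stamens (11.9 to 16.7). Unigene68765, matched to a protein named MGC52912, had 31 reads (6.23 RPKM) in stamens and 5749 reads (1141 RPKM) in carpels, a 183-fold higher level in carpels (129 to 269.8). Unigene68847, a xyloglucan endotransglucosylase, which cuts and rejoins the xyloglucan that tethers cellulose, had 353 reads (70.3 RPKM) in stamens and 6862 reads (1349 RPKM) in carpels and was 19.2-fold higher in carpels (17.2 to 21.4). The control, Unigene68614, which the study had picked for its even level in these profiles, had 331 reads (68.4 RPKM) in stamens and 344 reads (70.2 RPKM) in carpels, and its ratio of 1.03 had an interval of 0.88 to 1.2 that includes 1.

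The 2 organs differed widely. Of the 43749 unigenes with at least 20 reads, 9075 (20.7%) were higher in stamens and 5359 (12.2%) in carpels, and these shares are the background for every list below. The unigenes higher in stamens took 31.9% of the stamen reads and 3.01% of the carpel reads, and those higher in carpels took 3.95% of the stamen reads and 34.2% of the carpel reads. The difference was at least 64-fold for 723 unigenes higher in stamens and for 129 higher in carpels. Among unigenes with at least 20 reads, 814 had no carpel read, with up to 1054 stamen reads, and 210 had no stamen read, with up to 678 carpel reads. The unigenes at the edge of the rule were Unigene61994 (391 stamen and 99 carpel reads) just inside and Unigene59148 (1240 and 314 reads) just outside for stamens, and Unigene63570 (39 stamen and 158 carpel reads) just inside and Unigene6360 (21 and 85 reads) just outside for carpels. An nr match, the closest protein in the database searched by the study, was given for 61.7% of the unigenes higher in stamens, for 69.8% of those higher in carpels and for 68.3% of all 43749.

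The balance between the organs depends on the scaling. The median log2 ratio of stamens over carpels across the 43749 unigenes was 0.39 with RPKM per library total, and factors that correct for the make-up of the libraries lowered every log2 ratio by 0.28 (TMM) or 0.45 (median-of-ratios size factors). The share of all calls that were higher in stamens was 62.9% with library totals, 53.9% with TMM and 48.7% with size factors. The medians of lists below are therefore to be read against 0.39, and the lists whose balance turned with the scaling are named as such.

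**Figure D1:**
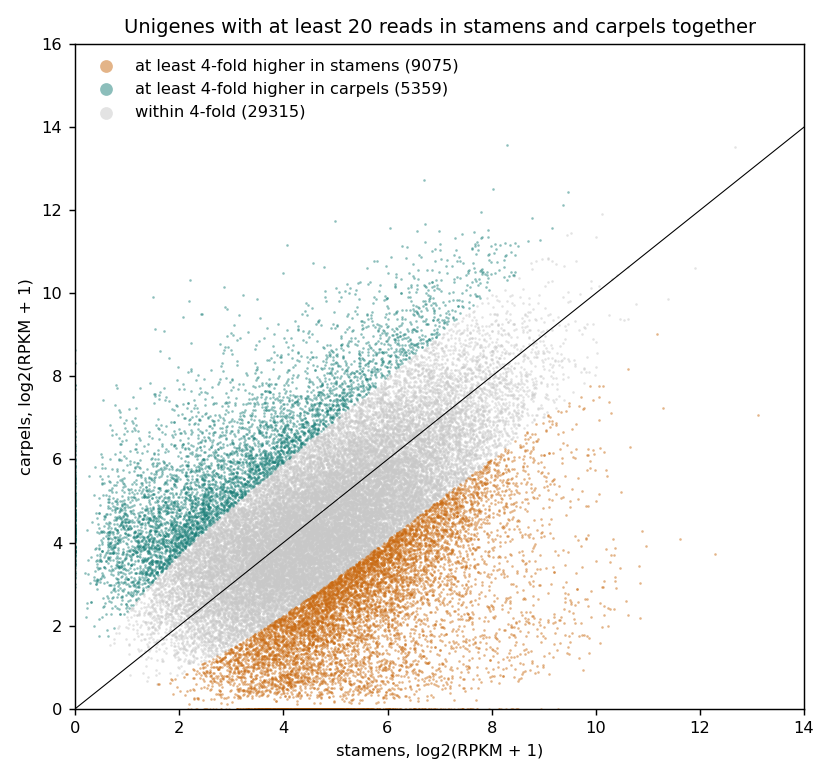
Stamen level (horizontal) against carpel level (vertical), both as log2(RPKM + 1), for the 43749 unigenes with at least 20 reads in both organs together. The 9075 unigenes at least 4-fold higher in stamens lie below the diagonal of equal levels, the 5359 higher in carpels lie above it, and 29315 lie within 4-fold.

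The organ labels were first checked on the floral homeotic genes. The B-function genes were high in stamens and near absent in carpels. Unigene20940, annotated as PISTILLATA, had 427 reads (506 RPKM) in stamens and 2 reads (2.34 RPKM) in carpels and was 216-fold higher in stamens (59.5 to 1791). Unigene55020, annotated as PIb, had 422 stamen reads and 0 carpel reads, at least 142-fold higher, and Unigene23314, annotated PI-like, had 244 stamen and 2 carpel reads. Unigene63356, annotated as APETALA3, the partner of PISTILLATA, had 119.5 RPKM in stamens and 7.74 in carpels, a 15.4-fold difference (10.2 to 24.4). In the petals, which B-function genes also specify, these unigenes lay between 139.7 RPKM for APETALA3 in lateral petals and 779.9 RPKM for PISTILLATA in ventral petals. Unigene54596, named only a MADS-domain factor, followed the same organs, with 89.8 RPKM in stamens and 5.48 in carpels and 126 RPKM in dorsal petals.

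C-function unigenes were found in both organs, and those named here had at most 8.4 RPKM in any other organ. Unigene15724 and Unigene45078, both annotated AGAMOUS-like, were higher in stamens, with 144 and 435 RPKM in stamens, against 30.01 and 97.4 RPKM in carpels. Their ratios were 4.79 (3.98 to 5.82) and 4.47 (3.72 to 5.4), and Unigene26271, matched to HmAGAMOUS, stayed just under 4-fold at 3.73 (2.66 to 5.33). Unigene53994, annotated AGAMOUS, had 146 RPKM in stamens and 171 in carpels, a ratio of 1.17 whose interval of 0.995 to 1.38 includes 1. Unigene48885, annotated as SHATTERPROOF-like after the Arabidopsis gene for pod opening, had 29.1 RPKM in stamens and 43.97 in carpels, also within 4-fold. The AGAMOUS-type unigenes together thus marked both reproductive organs, and the fragments did not share a ratio.

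The MADS-box unigenes higher in carpels were few. Unigene2517, annotated as MADS box protein M8, had 14 reads (2.28 RPKM) in stamens and 343 reads (55.2 RPKM) in carpels, and was 24.2-fold higher in carpels (14.2 to 44.7). Unigene35134, annotated as MADS-box protein 1, had 4.37 RPKM in stamens and 57.8 in carpels and no read in the 6 other organs. Unigene66678, annotated AGL6, was also called higher in carpels on 3 stamen and 22 carpel reads, but its level was highest in ventral petals, at 51.9 RPKM. Unigene66348, annotated AGL6a, went the other way, with 82.3 RPKM in stamens and 6.43 in carpels, but had 103 RPKM in leaves and 102 in sepals.

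Stamens held MADS-box unigenes of the MIKC* type, a class known in Arabidopsis for its part in pollen maturation. Unigene6064 had 288 reads (51.4 RPKM) in stamens and 4 reads (0.705 RPKM) in carpels, Unigene61593 had 156 stamen reads and 0 carpel reads, and Unigene62119 had 80 stamen and 11 carpel reads. The first of these was 72.9-fold higher in stamens (28.2 to 269), and the second at least 52.7-fold. Unigene1586, named only MADS-box protein, had 150 stamen and 1 carpel reads, a ratio of 152 with the wide interval of 26.9 to 6040.0, and was found elsewhere only in petals, at up to 5.02 RPKM. APETALA1, the perianth gene, had 58.3 RPKM in stamens and 4.29 in carpels (Unigene61668), and 575 RPKM in sepals. The E-function genes are cofactors in every floral whorl. Unigene32641 (SEPALLATA1) had 406 RPKM in stamens and 201 in carpels, Unigene38077 (SEPALLATA1-like) had 438 RPKM in stamens and 183 in carpels, and Unigene28176 (SEPALLATA3-like) had 143 RPKM in stamens and 29.6 in carpels. The last of these passed 4-fold, at 4.83 (3.24 to 7.42), and another SEPALLATA1-like unigene, Unigene23982, had 5 stamen and 15 carpel reads. Over the whole family, 19 of 37 MADS-box unigenes with enough reads were higher in stamens and 3 in carpels, and the median log2 ratio was 2.16. Of 52 in the files, the remaining 15 had fewer than 20 reads.

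The YABBY unigenes, CRABS CLAW among them, lay on the other side. YABBY factors specify the outer face of lateral organs, and CRABS CLAW is the member that Arabidopsis uses in the carpel and the nectary. Unigene7160, annotated as CRABS CLAW, had 11 reads (4.51 RPKM) in stamens and 78 reads (31.6 RPKM) in carpels, a 7.0-fold higher level in carpels (3.71 to 14.6), and apart from 1.17 RPKM in ventral petals no read elsewhere. Unigene37118, matched to the YABBY factor GRAMINIFOLIA, had 10 reads (8.35 RPKM) in stamens and 1205 reads (993 RPKM) in carpels and was 119-fold higher in carpels (64.5 to 249). Unigene24489, annotated abaxial cell fate / YABBY, had 4 stamen and 668 carpel reads (165-fold, 64.1 to 607), Unigene56681, YABBY2-like, had 3 stamen and 463 carpel reads, Unigene67333, YABBY1, had 5 stamen and 221 carpel reads, and Unigene13924, YABBY2, had 15 stamen and 245 carpel reads. Unigene33877 (yabby15) had no stamen read and 27 carpel reads, at least 8.89-fold higher in carpels, and Unigene58151 (YABBY 3) had 2 stamen and 62 carpel reads, but both reached their highest level in dorsal petals, at 141 and 193 RPKM. No YABBY unigene had more than 15 stamen reads. Several were also found outside the carpels. Unigene37118 had 90 RPKM in sepals, 218 in ventral petals and 53.6 in leaves, and Unigene13924 had 59.9 RPKM in sepals and 42.8 in leaves. Unigene17270, an AINTEGUMENTA-like factor, had 3 stamen and 36 carpel reads and was 11.8-fold higher in carpels (3.74 to 60.1), while 2 further AINTEGUMENTA-like unigenes stayed under 4-fold, Unigene5151 with 22 stamen and 11 carpel reads and Unigene59228 with 7 stamen and 19 carpel reads.

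Other factors with a known part in the style and stigma did not pass 4-fold. Unigene7705 (STYLISH 1) had 10.1 RPKM in stamens and 32.8 in carpels, 3.25-fold higher in carpels (2.47 to 4.33). The SPATULA fragments disagreed, with 13.6 RPKM in stamens and 8.93 in carpels for Unigene9098 and 16.1 RPKM in stamens and 25.9 in carpels for Unigene61065, and Unigene63017 (NGATHA2) had only 15 stamen and 12 carpel reads. BLH5, a BELL1-like homeodomain factor (Unigene65319), was the only member of this list higher in stamens, with 55.5 RPKM in stamens and 4.5 in carpels. In all, 1 of 19 unigenes of the carpel-regulator list were higher in stamens and 9 in carpels, against 20.7% and 12.2% of all unigenes.

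**Figure D2:**
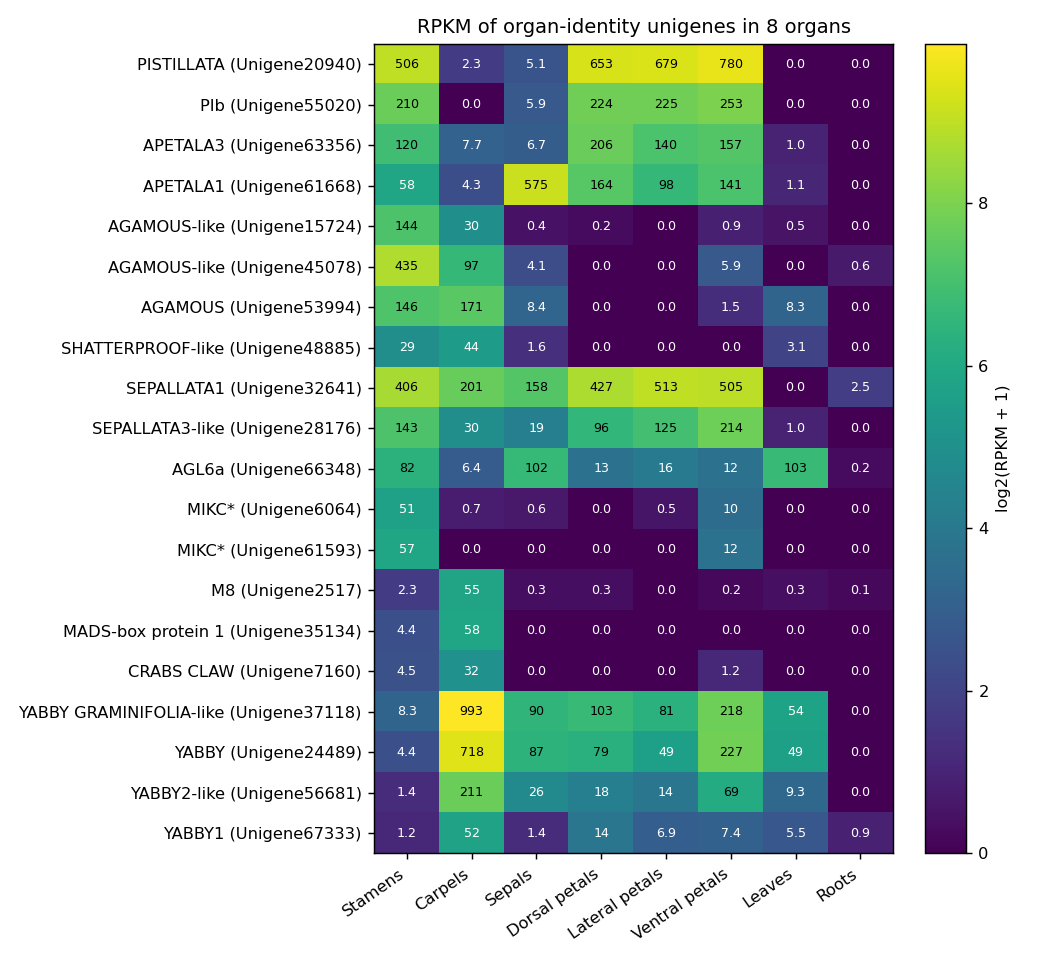
RPKM of 20 organ-identity unigenes (rows) in stamens, carpels and the 6 other organs (columns), 1 library each. The colour is log2(RPKM + 1) and the number in each cell is RPKM. PISTILLATA has 506 RPKM in stamens and 2.34 in carpels, and the GRAMINIFOLIA-like YABBY unigene has 8.35 RPKM in stamens and 993 in carpels.

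Enzymes that cut or de-esterify pectin were mostly higher in stamens. Of 159 pectin enzyme unigenes with enough reads, 89 (55.97%) were higher in stamens and 13 (8.18%) in carpels, and their RPKM summed to 47391 in stamens and 5588 in carpels. Pectinesterases, which expose the acid groups of pectin, were higher in stamens for 50 of 84 unigenes and in carpels for 6. Pectate lyases, which cleave the exposed chain, were higher in stamens for 24 of 35 and in carpels for 3. Polygalacturonases, which hydrolyse it, were higher in stamens for 15 of 40 and in carpels for 4. Their median log2 ratios were 3.74, 3.16 and 0.89, so that the polygalacturonases stood closest to the median of all unigenes. Unigene33534, annotated as the methylesterase PCRA, had 2035 reads (1839 RPKM) in stamens and 8 reads (7.14 RPKM) in carpels and was 258-fold higher in stamens (131 to 598). The pectate lyases Unigene40550 and Unigene28855 had 2043 stamen and 5 carpel reads and 1827 stamen and 10 carpel reads, 414-fold and 185-fold higher in stamens. Of the 89, 71 were higher in stamens than in any of the other 7 organs, against 43.7% of all unigenes called higher in stamens. Carpels had members of their own, such as the pectinesterase Unigene52792 with 10 stamen and 248 carpel reads and the polygalacturonase Unigene58219 with 46.98 RPKM in stamens and 189 in carpels.

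Unigenes named as pectinesterase inhibitors, or as invertase/pectin methylesterase inhibitor family proteins, whose name leaves the inhibited enzyme undecided, made up a list of their own. Of 22 such unigenes, 11 were higher in stamens and 1 in carpels. Unigene50560, of the family with the double name, had 3220 reads (1885 RPKM) in stamens and 32 reads (18.5 RPKM) in carpels, a 102-fold difference (72.04 to 149), and Unigene61525, named pectinesterase inhibitor, had 2627 stamen and 10 carpel reads. The SKU5-like proteins, related to copper oxidases and including the tobacco pollen tube protein NTP303, were higher in stamens for 9 of 17 unigenes and in carpels for 2. Unigene62503 (SKU5-like 12) had 3836 reads (1320.1 RPKM) in stamens and 40 reads (13.6 RPKM) in carpels. Unigene21809 (NTP303) had 984 stamen and 4 carpel reads, and Unigene38547 (sks7) had 957 stamen and 4 carpel reads. The 2 higher in carpels carried the same kinds of name, Unigene16770 (sks12) with 23 stamen and 96 carpel reads and Unigene60588 (sks7) with 85 and 379. With TMM the counts of the list were 8 in stamens and 4 in carpels, and with size factors 8 and 6.

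A list of unigenes named after pollen or the anther held 36 with enough reads, of which 19 were higher in stamens and 4 in carpels. Unigene1192, an Olee1-like protein of the family of the olive pollen allergen, had 2929 reads (3134 RPKM) in stamens and 15 reads (15.8 RPKM) in carpels, and was 198-fold higher in stamens (119.7 to 354). The name was no guarantee. Unigene57822, annotated pollen-specific protein like, had 19 stamen and 520 carpel reads and was 27.02-fold higher in carpels (17.1 to 45.3). Unigene6099, named as the anther-specific protein APG, a lipase of the GDSL family, was counted with the GDSL lipases and not in this list. It had 24 reads (3.57 RPKM) in stamens and 6096 reads (896 RPKM) in carpels, a 251-fold higher level in carpels (168 to 392).

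The actin list, with actin and the proteins that bind it, was higher in stamens for 27 of 112 unigenes (24.1%), near the 20.7% of all unigenes, and in carpels for 5 (4.46%), against 12.2%. Both profilin unigenes, which deliver actin monomers, were higher in stamens, and Unigene20480 had 498 reads (594 RPKM) in stamens and 11 reads (12.96 RPKM) in carpels. LIM proteins, which bundle actin filaments, were higher in stamens for 5 of 8. The pollen-type LIM protein PLIM2a (Unigene59866) had 1359 stamen and 15 carpel reads, a 91.8-fold difference (55.4 to 164), and WLIM-1 (Unigene23460) had 594 stamen and 6 carpel reads. Actin itself was close in the 2 organs, with summed RPKM of 4809 in stamens and 4675 in carpels, and 29 of its 38 unigenes lay within 4-fold. Formins, which start actin filaments, were higher in stamens for 8 of 25 and in carpels for 3, among them Unigene66469 with 13.6 RPKM in stamens and 118 in carpels. The summed RPKM of the formins went the other way, with 1555 in stamens and 2223 in carpels.

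The switches that steer tip growth were split. Regulators of ROP GTPases were higher in stamens for 5 of 15 unigenes and in carpels for 7, and this balance turned at 8-fold and with a minimum of 50 reads. The kinase partner proteins Unigene68595 and Unigene4287, named after pollen, had 842 stamen and 2 carpel reads and 301 stamen and 5 carpel reads, but another unigene of that name, Unigene69955, had 10 stamen and 98 carpel reads and was 9.68-fold higher in carpels (5.04 to 20.8), with its highest level in sepals. The exchange factors annotated ROPGEF1 (Unigene67031) and ROPGEF5 (Unigene2934) had 48 stamen and 355 carpel reads and 1 stamen and 35 carpel reads, both higher in carpels. For the exocyst and the SNAREs, which bring vesicles to the membrane, 23 of 74 unigenes were higher in stamens and 4 in carpels. Unigene17622, annotated EXO70D3, had 1406 reads (147 RPKM) in stamens and 3 reads (0.309 RPKM) in carpels, a 475-fold difference (162 to 2304), while Unigene70335, a syntaxin-like protein, had 37 reads (5.75 RPKM) in stamens and 1513 reads (232 RPKM) in carpels and was 40.4-fold higher in carpels (29.2 to 57.6).

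Ion and sugar transport was biased to stamens against carpels, but not always against petals. Of 84 unigenes for proton pumps and potassium or cation transport, 35 (41.7%) were higher in stamens and 5 (5.95%) in carpels. Their RPKM summed to 5630 in stamens and 1887 in carpels, and to 6103, 5201 and 4988 in the dorsal, lateral and ventral petals. The plasma membrane proton pump unigenes Unigene63938 and Unigene53892 had 1748 stamen and 5 carpel reads and 898 stamen and 2 carpel reads, and Unigene26941 had 347 stamen reads and 0 carpel reads, at least 117-fold higher in stamens. Another pump, Unigene69390, had 8 stamen and 126 carpel reads and was 15.6-fold higher in carpels (7.66 to 36.8), but 294 RPKM in dorsal petals. Sugar transporters were higher in stamens for 21 of 61 unigenes and in carpels for 5. Their RPKM summed to 6509 in stamens and 2096 in carpels, and to at most 4082 elsewhere, in sepals. The hexose transporter Unigene66772, matched to STP11, had 2298 reads (576 RPKM) in stamens and 13 reads (3.22 RPKM) in carpels, a 179-fold difference (104 to 337), and in carpels the MtN3-like protein Unigene69085, of the family that exports sugars, had 11 stamen and 206 carpel reads. Invertases, which split sucrose, were higher in stamens for 14 of 25 and in carpels for 1, led by the beta-fructofuranosidase Unigene65696 with 241 RPKM in stamens and 17.7 in carpels. The RPKM of the invertases summed to 1821 in stamens and 641 in carpels, and to 2405, 2175 and 2100 in the dorsal, lateral and ventral petals. The aquaporins gave 9 of 23 unigenes higher in stamens and 2 in carpels, but their RPKM summed to 3330 in stamens and 3800 in carpels. Unigene65459, whose primers are given above, did not pass 13.2 RPKM in any of the 6 other organs.

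Kinases and calmodulins of calcium signalling were among the most one-sided lists between stamens and carpels. Of 90 unigenes for calcium-dependent and CBL-interacting kinases, 27 (30%) were higher in stamens and 0 in carpels, and of 19 calmodulins 9 and 0. The RPKM of the kinases summed to 5776 in stamens and 2928 in carpels, but to 6548, 6592 and 7205 in the dorsal, lateral and ventral petals. That of the calmodulins summed to 1824 in stamens and 1242 in carpels, and to at most 1458 elsewhere, in ventral petals. With TMM or size factors the carpel counts were 2 kinases and 1 calmodulin. The calmodulin Unigene59508 had 995 reads (404 RPKM) in stamens and 103 reads (41.3 RPKM) in carpels, a 9.78-fold difference (7.98 to 12.1). The kinases Unigene20765 and Unigene27336 had 275 RPKM in stamens and 18.7 in carpels and 186 RPKM in stamens and 11.1 in carpels.

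A list of proteins known from drying seeds held late embryogenesis abundant, oil body and storage proteins. Of its 35 unigenes, 20 were higher in stamens and 2 in carpels. Late embryogenesis abundant proteins and dehydrins, which protect drying cells, were higher in stamens for 12 of 16, and oil body proteins for 6 of 9, and none of either was higher in carpels. The storage globulins were higher in stamens for 2 of 8 and in carpels for 0, with a median log2 ratio of 0.25, under that of all unigenes. Unigene53035, a late embryogenesis abundant protein, had 1370 reads (735 RPKM) in stamens and 9 reads (4.77 RPKM) in carpels and was 154-fold higher in stamens (80.97 to 338). The storage globulin vicilin (Unigene57993) had 485 stamen and 11 carpel reads, and 33.2 RPKM in ventral petals against at most 0.401 in the other 5 organs. Both members higher in carpels were lectin precursors, of which Unigene39583 had 10 stamen and 916 carpel reads.

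Peptides of the RALF family, secreted signals that act on receptor kinases, were found on both sides. Unigene41632 had 580 reads (435 RPKM) in stamens and 5 reads (3.71 RPKM) in carpels and Unigene58844 had 792 stamen and 7 carpel reads, 117-fold and 115-fold higher in stamens. Unigene52444, another member, had 358 reads (197 RPKM) in stamens and 4014 reads (2177 RPKM) in carpels and was 11.1-fold higher in carpels (9.93 to 12.4). The CLAVATA3/ESR-related peptide Unigene10225 had 6 stamen and 259 carpel reads, 42.6-fold higher in carpels. Of 285 receptor kinases, 41 (14.4%) were higher in stamens and 68 (23.9%) in carpels. Unigene44331, matched to the ERECTA-like kinase ERL1, had 0 stamen reads and 168 carpel reads, at least 55.3-fold higher in carpels, and Unigene62682, a leucine-rich repeat kinase, had 549 stamen and 3 carpel reads.

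Most histones and cyclins, and about as many replication proteins by nr name as not, were higher in carpels. Dividing cells make all of these, but cell division in the 2 organs was not tested. Of 38 histone unigenes, which package newly made DNA, 1 was higher in stamens and 31 (81.6%) in carpels. All 31 had their highest level of the 8 organs in carpels, against 72.6% of all unigenes called higher in carpels. H2A unigenes were higher in carpels for 11 of 12, H2B for 12 of 12, H3 for 2 of 2 and H4 for 5 of 6, while none of the 5 linker H1 unigenes passed 4-fold in either direction. Unigene3857 (H2B) had 329 reads (172 RPKM) in stamens and 5362 reads (2761 RPKM) in carpels, a 16.1-fold difference (14.4 to 18.04), and its next highest level was 534 RPKM, in roots. The exception was Unigene13787, an H4 with 33 stamen and 7 carpel reads, 4.77-fold higher in stamens (2.08 to 12.8), a call that was lost with TMM and with size factors.

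Cyclins and their kinases were higher in carpels for 25 of 40 unigenes and in stamens for 0. The A cyclins gave 5 of 6 higher in carpels, the B cyclins 6 of 7 and the D cyclins 7 of 7, against 5 of 15 for the kinases. Unigene70947 (cyclin D) had 177 reads (23.6 RPKM) in stamens and 4666 reads (614 RPKM) in carpels, a 26.03-fold difference (22.4 to 30.4), and Unigene8493 (cyclin B-like) had 27 reads (10.2 RPKM) in stamens and 763 reads (283 RPKM) in carpels, 27.9-fold (19.02 to 42.6). Genes of DNA replication were higher in stamens for 1 of 60 and in carpels for 29. The GO term DNA replication in the deposited annotation did not share this carpel bias. Of its 59 unigenes, 9 (15.3%) were higher in stamens and 2 (3.39%) in carpels, both under the 20.7% and 12.2% of all unigenes. Its median log2 ratio of 0.36 was close to the 0.39 of all unigenes. It shared none of its 59 unigenes with the list taken from nr names. The wider term DNA metabolic process had 24 of 162 higher in stamens and 43 in carpels. All 5 ribonucleotide reductase unigenes, which supply deoxynucleotides, were higher in carpels, as were 7 of 8 for the MCM helicase. Unigene60435, a reductase subunit, had 156 stamen and 2374 carpel reads, a 15.03-fold difference (12.8 to 17.8). The spindle checkpoint protein MAD2 (Unigene46682) had 6 stamen and 244 carpel reads, 40.2-fold higher in carpels (18.2 to 110.5).

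Genes named for mitosis in a wider sense were less one-sided, with 29 of 148 higher in stamens and 40 in carpels, a median log2 ratio of 0.16, and a balance that turned at 2-fold, with a minimum of 50 reads and with the interval in place of the fold. Kinesin heavy chain (Unigene37387), a motor also used outside division, had 199 RPKM in stamens and 35.9 in carpels. Tubulins, the subunits of microtubules, gave 6 of 41 higher in stamens and 6 in carpels, and with size factors 4 and 8. Beta-tubulin unigenes were divided between the organs. Unigene69042, Unigene52264 and Unigene53223 had 414, 382 and 305 RPKM in stamens, against 17.2, 10.9 and 11.6 RPKM in carpels, and Unigene33409 and Unigene38661 had 93.5 and 74.6 RPKM in stamens, against 733 and 373 RPKM in carpels.

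The ribosomal proteins of the cytosol were the list with most members higher in carpels of the 55 compared. Of 215 unigenes with enough reads, 2 (0.93%) were higher in stamens and 133 (61.9%) in carpels, and the median log2 ratio was -2.42. Their RPKM summed to 25374 in stamens and 158482 in carpels, and to 59039 in roots, 29003 in sepals and 14102 in dorsal petals. The small subunit gave 64 of 95 higher in carpels and the large subunit 64 of 111. Unigene37194 (S28e) had 853 reads (709 RPKM) in stamens and 6801 reads (5581 RPKM) in carpels, a 7.87-fold difference (7.33 to 8.46), and Unigene38301 (L9) had 821 reads (665 RPKM) in stamens and 5583 reads (4462 RPKM) in carpels. The 2 exceptions were Unigene56142 (L18a), with 251 stamen and 24 carpel reads, and Unigene39441 (acidic P0), with 21 stamen and 1 carpel reads. Translation factors were mixed, with 10 of 122 higher in stamens and 19 in carpels, but elongation factor 2 was higher in carpels in its best-read unigenes, Unigene33138 with 159 RPKM in stamens and 2113 in carpels and Unigene22346 with 70.8 RPKM in stamens and 1404 in carpels.

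Chromatin genes were higher in stamens for 8 of 139 unigenes and in carpels for 26. The plant HD2 histone deacetylases stood out. Unigene53911 (HD2C) had 92 reads (47.7 RPKM) in stamens and 3066 reads (1570.0 RPKM) in carpels, a 32.9-fold higher level in carpels (26.7 to 40.9), Unigene38764 (HDAC2) had 101 stamen and 2326 carpel reads and Unigene41008 (HD2 isoform 2) had 117 stamen and 1812 carpel reads. A DNA methyltransferase higher in stamens, Unigene59922, had 138 RPKM in stamens and 26.3 in carpels. A list of organ growth and boundary genes, with growth-regulating factors, their GIF coactivators and cup-shaped cotyledon genes among others, gave 3 of 28 higher in stamens and 9 in carpels. Unigene8886 (growth-regulating factor 1) had 15 stamen and 442 carpel reads, 29.1-fold higher in carpels (17.4 to 52.4), and Unigene66176 (GIF3-like) had 29 stamen and 1187 carpel reads, 40.4-fold (27.99 to 60.6). The 3 members higher in stamens were the coactivator GIF1 (Unigene26776), with 35 stamen and 3 carpel reads, and a pair of cup-shaped cotyledon unigenes, boundary genes of the NAC family, with 205 stamen and 7 carpel reads for Unigene16111 and 96 stamen and 3 carpel reads for Unigene63277.

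**Figure D3:**
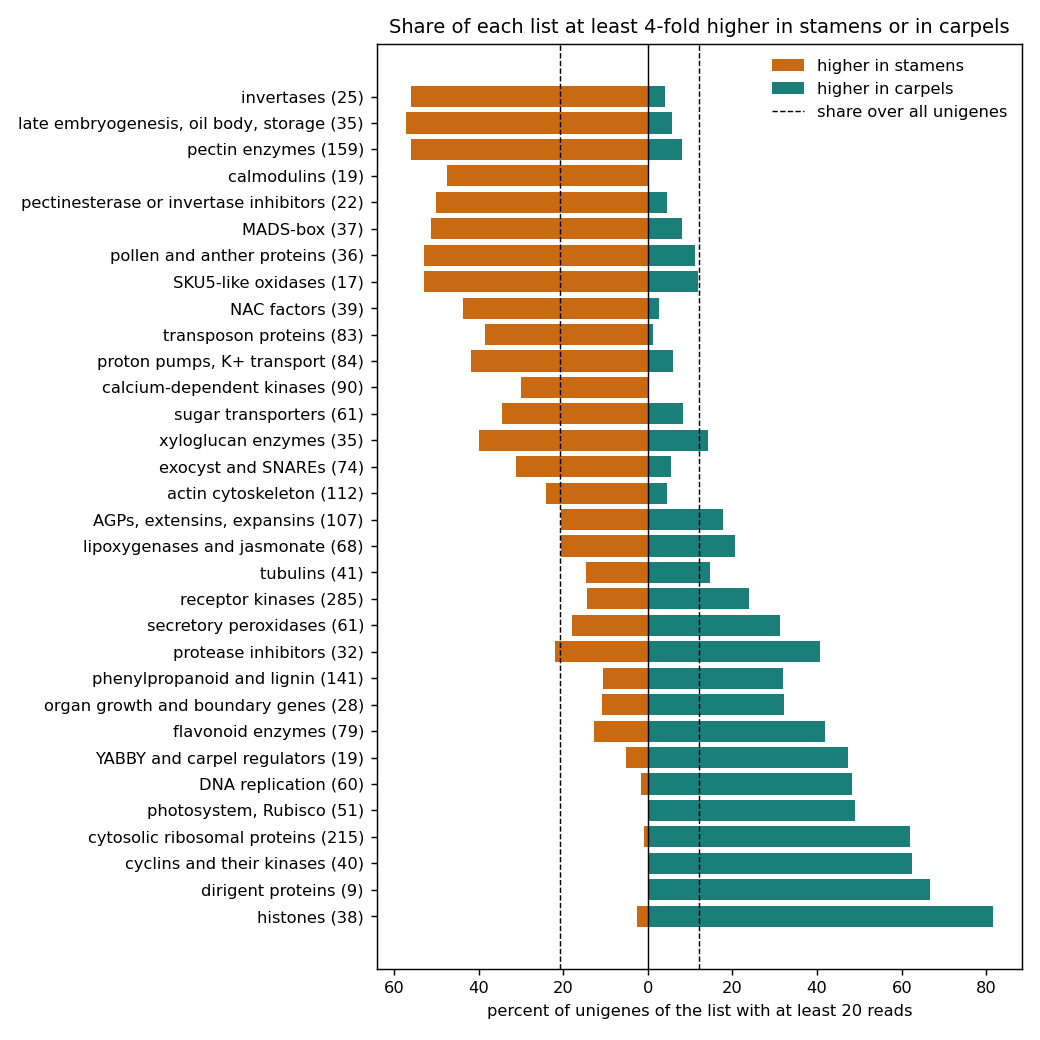
Share of the unigenes of 32 lists that were at least 4-fold higher in stamens (left) or in carpels (right), in percent of the members with at least 20 reads, whose number is in brackets. Dashed lines give the shares over all 43749 unigenes, 20.7% for stamens and 12.2% for carpels. Pectin enzymes reach 55.97% for stamens and histones 81.6% for carpels.

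Protease inhibitors were higher in stamens for 7 of 32 unigenes and in carpels for 13. The trypsin inhibitors among them, which block digestive proteases, were higher in stamens for 1 of 18 unigenes and in carpels for 11. Unigene9828 had 142 reads (103 RPKM) in stamens and 9410 reads (6757 RPKM) in carpels, a 65.4-fold difference (55.4 to 77.8), and the next highest levels were 819.6 RPKM in roots and 281 in ventral petals. The cystatin Unigene61382, an inhibitor of cysteine proteases, had 209 stamen and 14 carpel reads and was 15.1-fold higher in stamens (8.81 to 28.1). All 6 dirigent unigenes called, of 9 with enough reads, were higher in carpels. Dirigent proteins guide the coupling of monolignols to lignans, and Unigene28427 had 31 reads (30.9 RPKM) in stamens and 3470 reads (3411 RPKM) in carpels, a 111-fold difference (77.7 to 163), with at most 65.6 RPKM in the 6 other organs, in sepals.

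Chitinases, thaumatin-like and other pathogenesis-related proteins were called on both sides, with 11 of 52 higher in stamens and 18 in carpels. A thaumatin-like protein (Unigene64519) had 136 reads (40.97 RPKM) in stamens and 3655 reads (1087 RPKM) in carpels, an acidic chitinase (Unigene66708) 79 stamen and 2194 carpel reads and a class III chitinase (Unigene50781) 64 stamen and 1014 carpel reads, all higher in carpels, while a pathogenesis-related protein of class I (Unigene67424) had 619 stamen and 2 carpel reads and was 313-fold higher in stamens (86.4 to 2594). Polygalacturonase inhibitors, which protect the wall from fungal enzymes, gave 4 of 18 higher in stamens and 7 in carpels, with a median at that of all unigenes (0.39) and a balance that turned at 2-fold and with a minimum of 50 reads. Unigene64959 had 496 reads (145 RPKM) in stamens and 3561 reads (1026 RPKM) in carpels, a 7.09-fold higher level in carpels (6.45 to 7.8).

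Secretory peroxidases, which cross-link wall polymers, were higher in stamens for 11 of 61 unigenes and in carpels for 19. Unigene21030 had 55 reads (64.8 RPKM) in stamens and 2629 reads (3059 RPKM) in carpels, a 47.2-fold higher level in carpels (36.1 to 62.8), and Unigene60727 (peroxidase 15) had 172 stamen and 5002 carpel reads. Unigene16449 carries the name stigma specific peroxidase but had 1042 reads (176 RPKM) in stamens and 18 reads (3.0 RPKM) in carpels and was 58.6-fold higher in stamens (36.9 to 99.3). Of the phenylpropanoid and lignin enzymes, 15 of 141 were higher in stamens and 45 in carpels. Unigene590, a phenylalanine ammonia-lyase, the entry enzyme, had 142 reads (18.3 RPKM) in stamens and 2663 reads (338 RPKM) in carpels, 18.5-fold higher in carpels (15.6 to 22.1). Flavonoid enzymes gave 10 of 79 higher in stamens and 33 in carpels. Of these 33, only 12 were highest in carpels and 17 in dorsal or lateral petals, while 72.6% of all unigenes called higher in carpels were highest there. The anthocyanidin rhamnosyltransferase Unigene69051 had 23 reads (4.44 RPKM) in stamens and 3815 reads (727 RPKM) in carpels, a 164-fold difference (109 to 259).

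Families of wall enzymes had different members higher in each of the 2 organs. The list of xyloglucan enzymes, taken by name, was higher in stamens for 14 of 35 unigenes and in carpels for 5. Among the 5 was Unigene34469, with 119 stamen and 698 carpel reads, which is named an inhibitor of a xyloglucan-specific endoglucanase and not an enzyme. Unigene18694 had 4019 reads (4988 RPKM) in stamens and 10 reads (12.3 RPKM) in carpels, a 407-fold higher level in stamens (221 to 849), on a unigene of only 150 bp, and 2745 RPKM in ventral petals. In carpels, Unigene68847 and Unigene37486 led, with 1349 and 1201 RPKM. Cellulose and callose synthases gave 23 of 80 higher in stamens and 12 in carpels. Unigene58543 (cellulose synthase-like A1) had 1406 stamen and 6 carpel reads, 237-fold higher in stamens (109 to 648). Unigene70809 (cellulose synthase-like D2), Unigene67210 (D7) and Unigene61272 (cellulose synthase 8.1) had 37 stamen and 2063 carpel reads, 3 stamen and 934 carpel reads and 10 stamen and 756 carpel reads, all higher in carpels.

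Arabinogalactan proteins, extensins and expansins gave 22 of 107 higher in stamens (20.6%) and 19 in carpels (17.8%), and with TMM or size factors, or log2(RPKM + 1), carpels had more. Unigene45539 (fasciclin-like arabinogalactan protein 10) had 1941 reads (1324 RPKM) in stamens and 11 reads (7.41 RPKM) in carpels, a 179-fold difference (99.7 to 359), and Unigene38064 (AGP22) had 530 stamen and 2 carpel reads. Unigene28576 (AGP1) had 13 stamen and 431 carpel reads, 32.7-fold higher in carpels, and the pistil-specific extensin-like protein (Unigene60337) had 99.3 RPKM in stamens and 693 in carpels, 6.98-fold higher in carpels (6.12 to 7.99). Lipid transfer proteins were also divided. Unigene61939 had 1192 stamen and 20 carpel reads and was higher in stamens, and Unigene60985 had 5 stamen and 1517 carpel reads and was 299.6-fold higher in carpels (128 to 924). GDSL lipases gave 14 of 55 higher in stamens and 15 in carpels, a balance that turned when unigenes were summed by nr match. Unigene70439 had 136 stamen and 5767 carpel reads and Unigene50337 had 453 stamen and 4 carpel reads.

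**Figure D4:**
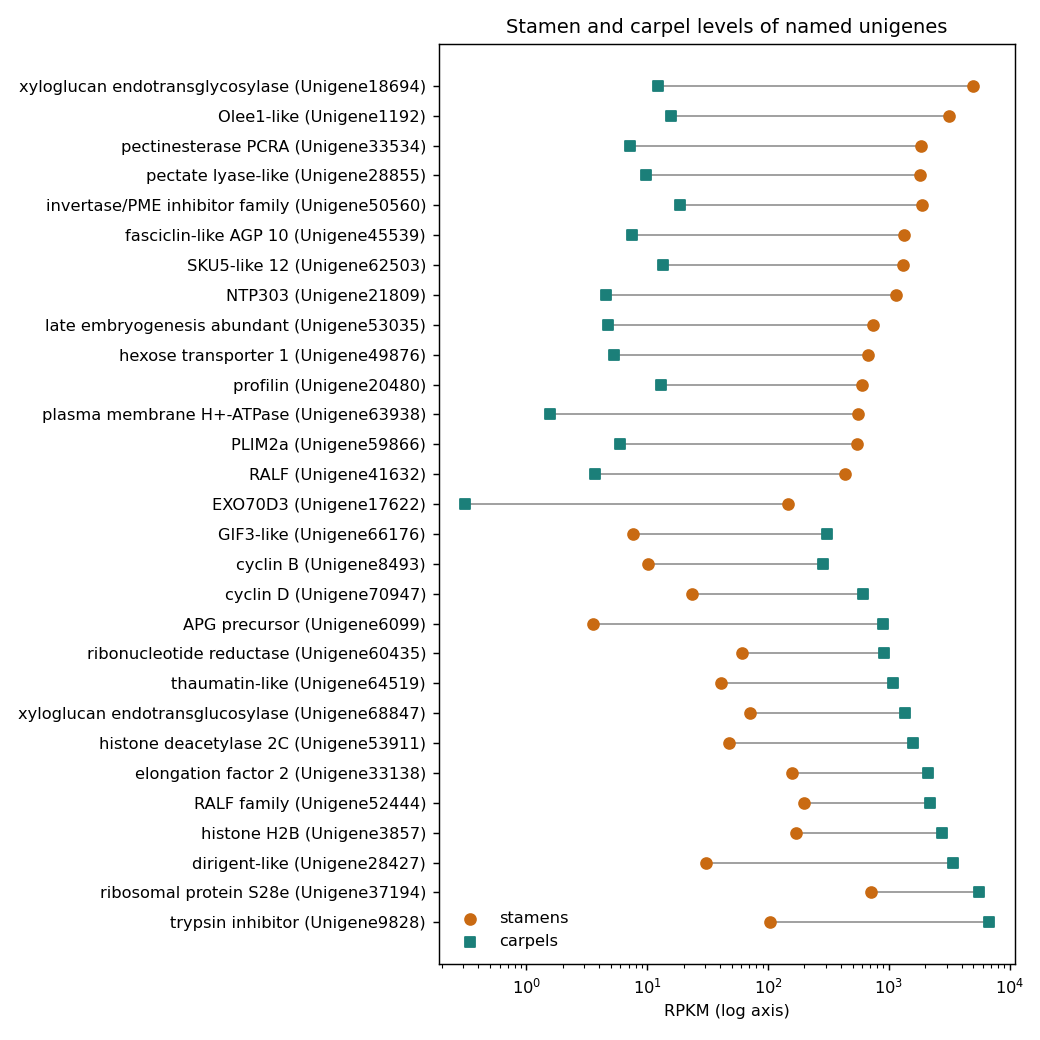
RPKM in stamens (circles) and carpels (squares) of 29 named unigenes on a log axis, 1 library each. The upper 15 are higher in stamens, from 4988 RPKM for the xyloglucan endotransglycosylase to 147 for EXO70D3, and the lower 14 are higher in carpels, up to 6757 RPKM for the trypsin inhibitor.

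Among other transcription factors, NAC genes were one-sided, with 17 of 39 higher in stamens and 1 in carpels. Only 1 of the 17 had its highest level in stamens, against 43.7% of all unigenes called higher in stamens. Lateral or ventral petals held it for 13, against 15.4% and 10.6% of all those unigenes. Unigene59809 (NAC6) had 84.3 RPKM in stamens and 1.58 in carpels, and Unigene54738, the exception, had 55.7 RPKM in stamens and 465 in carpels. MYB factors gave 25 of 100 higher in stamens and 10 in carpels. Unigene48686, of the R2R3 type, had 441 RPKM in stamens and 77.5 in carpels, and Unigene34000 had 125 RPKM in stamens and 591 in carpels. Homeobox genes gave 30 of 110 higher in stamens and 23 in carpels, and carpels had more with TMM or size factors.

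Hormone genes were near the background for most lists. For auxin, 37 of 179 unigenes were higher in stamens and 23 in carpels, and carpels had more with size factors. The Aux/IAA repressors Unigene49869 and Unigene42683 (IAA9) had 24.5 RPKM in stamens and 245 in carpels and 41.05 RPKM in stamens and 279 in carpels, and the SAUR protein Unigene3109 had 316 RPKM in stamens and 53.1 in carpels. For ethylene, 17 of 65 were higher in stamens and 6 in carpels, and the ACC synthase Unigene61132, which makes the ethylene precursor, had 651 stamen and 23 carpel reads, 28.7-fold higher in stamens (18.9 to 45.5). For gibberellin, 5 of 28 were higher in stamens and 4 in carpels. Of the gibberellin 20-oxidases, which make the precursors of active gibberellins, Unigene12238 had 856 stamen and 77 carpel reads, 11.3-fold higher in stamens (8.91 to 14.4), and Unigene70403 had 17 stamen and 137 carpel reads, 7.96-fold higher in carpels (4.79 to 14.1). The GID1-like receptor Unigene34902 had 132 stamen and 7 carpel reads and was higher in stamens, and Unigene62932, annotated as the receptor GID1L2, had 11 stamen and 1333 carpel reads, 119.7-fold higher in carpels (66.7 to 240.3). For cytokinin, an oxidase that degrades it (Unigene66263) had 768 stamen and 43 carpel reads, 18.1-fold higher in stamens (13.3 to 25.2), and for brassinosteroids the biosynthetic protein DWARF1 (Unigene65629) had 98 stamen and 1240 carpel reads, 12.5-fold higher in carpels (10.2 to 15.5). Lipoxygenases and jasmonate genes gave 14 of 68 higher in stamens and 14 in carpels, or 20.6% each, against 20.7% and 12.2% of all unigenes. Their median log2 ratio was -0.52. With TMM the counts were 14 in stamens and 18 in carpels, and with size factors 12 and 20. The lipoxygenase Unigene31606 had 173 RPKM in stamens and 1689 in carpels, and the 13S-lipoxygenase Unigene20280 had 259 RPKM in stamens and 23.7 in carpels.

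Photosynthetic genes were higher in carpels for 25 of 51 unigenes and in stamens for 0. Only 2 of the 25 were highest in carpels, against 72.6% of all unigenes called higher in carpels, with 14 highest in sepals and 9 in leaves. The chlorophyll a/b binding protein Unigene39380 had 101 RPKM in stamens and 823 in carpels, and 4113 RPKM in leaves. Unigene65647, annotated as photosystem I subunit B, had 9 stamen and 614 carpel reads. The beta-amylase Unigene31435, which degrades starch, had 103 RPKM in stamens and 1177 in carpels, and the sucrose phosphate synthase Unigene68993, which makes sucrose, had 246 RPKM in stamens and 23.7 in carpels. Transposon-derived unigenes were higher in stamens for 32 of 83 and in carpels for 1, but only 83 of 449 in the files had enough reads, and the carpel count was 5 with TMM and 7 with size factors. The polyprotein Unigene15527 had 260 stamen and 4 carpel reads.

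The most abundant unigenes of each organ were partly without annotation. Unigene31289, for which no nr match was given and whose length was 197 bp, had the highest stamen level among those higher in stamens, with 9356 reads (8842 RPKM) in stamens and 142 reads (133 RPKM) in carpels, but 9137 RPKM in ventral petals. Unigene24097, also without a match, had 1820 reads (2005 RPKM) in stamens and 13 reads (14.1 RPKM) in carpels, and at most 16.4 RPKM outside stamens and ventral petals. Unigene43632, matched to a protein named LOC100281953, had 2560 reads (1833 RPKM) in stamens and 5 reads (3.54 RPKM) in carpels, a 519-fold difference (222 to 1598). In carpels, Unigene35395, matched to a protein named Os06g0139800, had 360 reads (313 RPKM) in stamens and 14151 reads (12156 RPKM) in carpels, a 38.8-fold difference (34.95 to 43.2), and at most 216 RPKM in the 6 other organs. Unigene24887, without a match, had 97 reads (105 RPKM) in stamens and 3031 reads (3239 RPKM) in carpels, and at most 50.5 RPKM elsewhere outside stamens. Unigene31230, without a match, had 275 reads (259.9 RPKM) in stamens and 6239 reads (5822 RPKM) in carpels and 913 RPKM in sepals, and Unigene44773, matched to F20B17.14, had 320 reads (222 RPKM) in stamens and 5754 reads (3947 RPKM) in carpels and 831 RPKM in dorsal petals.

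The other 6 libraries separate the 2 sets. Of the 9075 unigenes higher in stamens, 3964 (43.7%) had their highest level of all 8 organs in stamens, while lateral petals held it for 1398 (15.4%), ventral petals for 960 (10.6%) and dorsal petals for 910 (10.03%). Of the 5359 higher in carpels, 3892 (72.6%) were highest in carpels, 573 (10.7%) in roots and 423 (7.89%) in leaves, and 216 together in the 3 kinds of petals. The median RPKM of the unigenes higher in stamens was 42.8 in stamens and 3.81 in carpels, and 36.9 in the ventral petals, 30.1 in the lateral ones and 28.3 in the dorsal ones. That of the unigenes higher in carpels was 5.19 in stamens and 48.8 in carpels, with 14.9 in roots and between 6.69 and 7.58 in the petals. The stamen side was thus shared with the petals to the extent that their medians approached that of the stamens.

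**Figure D5:**
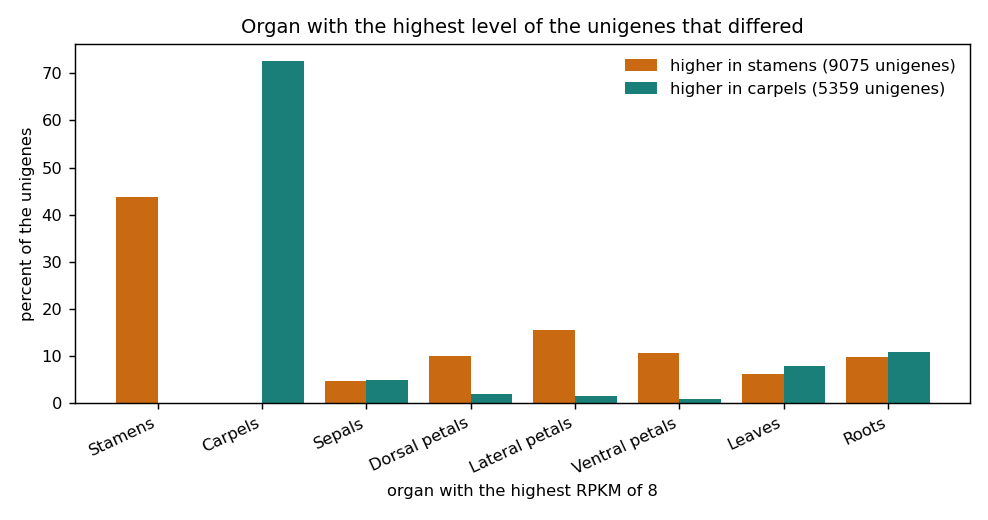
Organ with the highest RPKM of 8, in percent of the 9075 unigenes higher in stamens (left bar of each pair) and of the 5359 higher in carpels (right bar). Of the unigenes higher in stamens 43.7% peak in stamens, and of those higher in carpels 72.6% peak in carpels. The call favours the organ it names and excludes the partner organ.

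Unigenes found mainly in a single organ give the level at which its transcripts were counted in the partner organ. For 276 unigenes with at least 500 stamen reads and at most 5% of the stamen level in sepals, dorsal and lateral petals, leaves and roots, the carpel level was 0.649% of the stamen level at the median, with quartiles of 0.377% and 1.16%, and under 2% for 247. Only 2 were above 25%, the higher of them at 223% of its stamen level. The ventral petals, left out of the condition, held 22.5% of the stamen level of these unigenes at the median (quartiles 17.7% and 28.5%). The Olee1-like Unigene1192 and the methylesterase Unigene33534 had 652 and 292 RPKM there. For 43 unigenes with at least 500 carpel reads and at most 5% of the carpel level in the 6 other organs, the stamen level was 2.39% of the carpel level at the median, with quartiles of 1.13% and 5.29% and a maximum of 14.3%. The part of tissue or reads carried over between the libraries in these levels was not tested.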

How the data were processed

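Poly(A) RNA of each organ was fragmented, copied from random hexamers and read on an Illumina HiSeq instrument, and the study assembled reads of a further library, made from the mixed RNA of the 8 organs, into unigenes with SOAPdenovo and TGICL and named them by BLAST against nr. Which aligner placed the reads is not given in these sources. The deposited counts are the reads that the authors found uniquely aligned to each unigene, the deposited RPKM values are these counts divided by unigene length and library total, and the deposited coverage is the percent of a unigene covered by reads. RPKM computed here from the counts differed from the deposited values by at most 5.58e-09 of the value. No strand was used in the counting as far as the sources say, so that overlapping transcripts cannot be told apart. The tables were joined by unigene name, and counts are only of the 1 library per organ, so that no test could be made.

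Unigenes with at least 20 reads over both organs were compared, and an RPKM ratio of at least 4-fold was called higher, with 3 reads in place of a count of 0. Intervals are exact binomial ones at 95% (SciPy 1.17.1). The 55 lists were text patterns on the nr annotation, and deposited GO process terms were counted for comparison. The members and lists were chosen with earlier results of these data known, and the patterns were corrected after their matches had been seen. Named were the 10 unigenes of highest RPKM on each side, up to 3 per list and direction, every MADS-box and carpel-regulator unigene with enough reads, and called unigenes with primers. The internal control of the study and the unigenes at the edge of the rule were added. Scaling by TMM (edgeR 4.0.16) and by size factors (DESeq2 1.42.0, both in R 4.3.3), other read minimums and folds, log2(RPKM + 1), unigenes over 200 bp, totals without the 100 most abundant unigenes, thinned reads and sums by nr match were tried as alternatives. The procedure was tested on simulated data. Coverage was used only to describe the libraries, and no sequence other than the primers of the study was used here. Tables were handled with Python 3.11.15, pandas 2.3.3 and NumPy 2.4.6, and plots drawn with matplotlib 3.10.9.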

Additional observations from a re-analysis of the deposited data

How the results depend on the processing

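The number of unigenes higher in each organ moved mostly with the fold that was asked for. At 2-fold it was 16407 in stamens and 10369 in carpels, at 8-fold 4909 and 2551, and with unigenes summed by nr match 4221 and 2943. The unigenes that also had their highest level of all 8 organs there numbered 5948 for stamens and 6492 for carpels at 2-fold, and 1999 for carpels at 8-fold. The median log2 ratio of all unigenes was 0.11 with TMM, -0.059 with size factors, and 0.26 both without a minimum of reads and with sums by nr match. The difference in number between the organs thus depends on the scaling, as does the sign of the median. Of the 363 named unigenes, 2 with TMM and 3 with size factors changed the sign of their log2 ratio, none of them called higher in an organ, and none did so in the other 3 settings run on single unigenes.

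With TMM, 8 of the 110 counts of list members moved by over 1.5 times, and with size factors 20. Among these were translation factors, with 6 (TMM) or 5 (size factors) higher in stamens in place of 10 and 33 higher in carpels with size factors in place of 19, ABC transporters, with 10 or 8 higher in stamens in place of 17, and with size factors F-box and SKP1 proteins, with 24 higher in stamens in place of 40, auxin genes, with 24 in place of 37, and heat shock proteins, with 30 higher in carpels in place of 17. The side with more members turned in some setting for 10 of the 55 lists. Besides those named with their values, these were the lipid transfer proteins at 2-fold, the heat shock proteins with size factors, and the F-box and SKP1 proteins with either factor. The lipoxygenases and jasmonate genes, the ABC transporters, the tubulins and the list with the RALF peptides had equal counts on both sides. They were not counted as turned, but with TMM or size factors carpels had more in each.

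No paired analysis was possible because each organ had 1 library, and for the same reason leaving out a library would leave an organ without any. Reads limit a ratio most where an organ had few of them, as the intervals show, and 23599 unigenes with reads stayed under the minimum of 20. Variation between plants, dissections and library preparations is not measured by these data. Short unigenes, and gene copies that share reads, make a count of list members uncertain as a count of genes.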
